A study of Homo sapiens with 2 samples.

Results

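Genes of epithelial junctions, keratin filaments and epithelial identity were examined in 2 cultures of LN229, a human glioblastoma cell line, grown in serum-containing medium. The list held 49 gene symbols, and a gene was measured if a probe set of the array was annotated to that symbol and to no other. This gave 46 genes with 81 probe sets, of 19775 genes measured in all. KRT17 and F11R were not analysed here, and the probe set of ESRP2 also carried another gene's symbol and was left out. In miR-127-3p cells a pSUPER.neo plasmid drove that microRNA, and control cells had pSUPER.neo alone. Whether each culture was a pool or a single clone is not stated in the labels, and the level of the mature microRNA was not analysed here. With 1 array per group no test was possible, no p-value is given, and the microRNA, the culture and the array cannot be told apart as sources of a difference.

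Epithelial cells are held together by cadherins and desmosomes, which couple the membrane to actin and keratin filaments, and are sealed by tight junctions built from claudins, occludin and scaffold proteins. Keratins form filaments from equal parts of a type I and a type II chain, and KRT8 with KRT18 or KRT19 is the usual combination of simple epithelia. A small set of factors maintains this state: GRHL2, ELF3 and OVOL proteins act on transcription and ESRP proteins on splicing, while ZEB, SNAI and TWIST factors repress it. Astrocytes and most gliomas use vimentin and glial filaments in place of keratins.

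The mature microRNA is shown because it is the only designed difference between the cultures; it is from RefSeq, GRCh38.p14, chr14:100883035-100883056, plus strand, with the seed (bases 2 to 8) in capitals.
hsa-miR-127-3p: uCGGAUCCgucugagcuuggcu

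Signals are probe set intensities in arbitrary units. The array medians were 83.3 for miR-127-3p cells and 93.9 for control cells, and a signal at or below its array's median is called dim here. Each gene is represented by its probe set with the highest mean log2 signal over both arrays. Where 1 of the 2 signals was dim, the fold is a lower limit against that array's median, and where both were dim no fold is given. This dim limit was chosen here and calls no gene undetected. Log2 ratios are of signal + 1, miR-127-3p minus control, less the median of 0.01 over all genes above a signal of 83.0. The ratios of different probe sets for 1 gene scattered with an SD of 0.41 (5974 pairs), a spread within these arrays that holds no variation between cultures. In bulk RNA a smaller share of epithelial-type cells and less RNA per cell cannot be told apart.

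The epithelial genes were mostly dimmer on the miR-127-3p array. Of the 46 genes, 1 was above the median on the miR-127-3p array only and 22 on the control array only, while 11 were above it on both arrays and 12 on neither. Across all named genes, 3.14% were above the median on the miR-127-3p array only, 4.88% on the control array only and 35.4% on neither. With dim signals set to the array median, 21 of the 46 genes were at least 2-fold lower in miR-127-3p cells, against 5.56% of all named genes. At least 8-fold differences of this kind were counted for 10 of the 46, against 0.652% of all. None of the 46 was at least 2-fold higher, against 2.91% of all. The array medians differ, so a gene dim on both arrays has a log2 ratio of -0.18 here, which shifts these shares. With the median over all genes at 0, 4.14% of all were lower and 4.57% higher, and the listed genes still gave 21 lower and none higher. Setting dim signals to the median without the filter was added after seeing the data. The list was drawn up with earlier results of these data known, so these shares describe it and are not independent evidence.

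**Figure D1:**
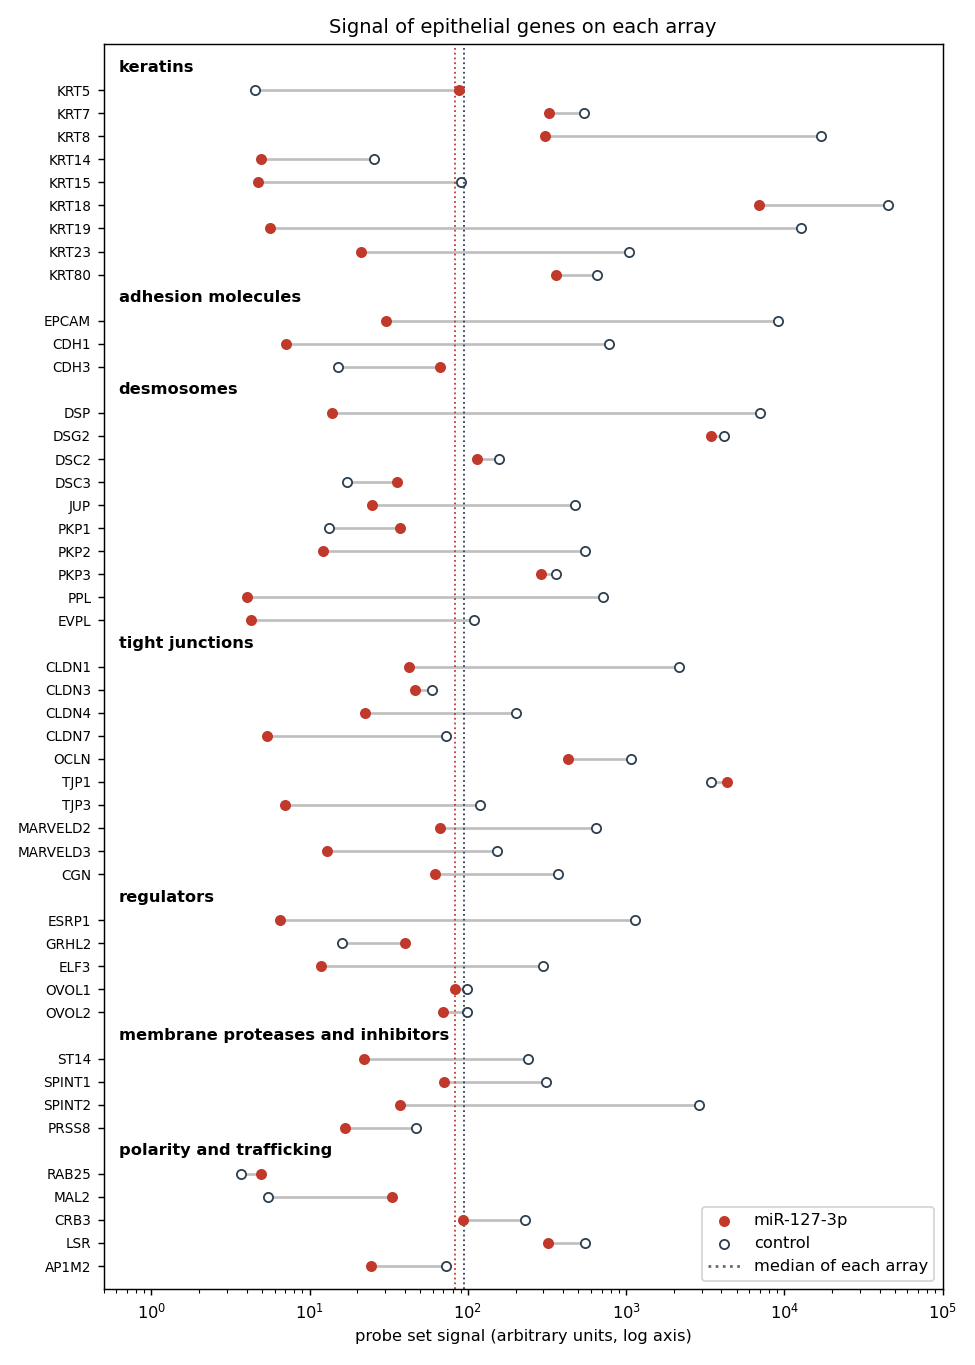
Signal of each measured gene on a log axis, miR-127-3p as filled points and control as open points, 1 array each, with dotted lines at the array medians. Most open points lie to the right of the filled ones, and KRT19, EPCAM and DSP span the longest lines from a dim to a bright signal.

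Among keratins, the filament proteins, the simple-epithelial KRT8, KRT18 and KRT19 and also KRT23 were lower in miR-127-3p cells, and the other 5 were within 2-fold or dim on at least 1 array. KRT8, the type II chain, gave 307 in miR-127-3p cells and 16926 in control cells, 55.4-fold lower. KRT18, its type I partner, gave 6906 in miR-127-3p cells and 44863 in control cells, 6.55-fold lower. Both signals of both genes were above the array median, so these are measured folds. KRT8 and KRT18 have many related pseudogenes, and each had a single probe set with a suffix marking possible cross-matches, so their share of the signal is uncertain. KRT19, the other type I chain of simple epithelia, gave 5.64 in miR-127-3p cells and 12674 in control cells, at least 151-fold lower. A second KRT19 probe set was dim on both arrays. KRT23, a type I keratin, gave 21.1 in miR-127-3p cells against 1049 in control cells, at least 12.5-fold lower. The keratins past 2-fold were thus these 4 of 9 measured, KRT8, KRT18, KRT19 and KRT23, against 5.56% of all named genes with dim signals at the median.

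KRT7, a type II keratin of ducts and simple epithelia, gave 326 in miR-127-3p cells and 538 in control cells, a log2 ratio of -0.73. Another KRT7 probe set went the other way, with 110 in miR-127-3p cells against 63.9 in control cells and a log2 ratio of 0.76, so its direction is not settled. KRT80 gave 361 in miR-127-3p cells and 656 in control cells, a log2 ratio of -0.87. KRT14 and KRT15, keratins of basal and stratified epithelia, were dim on both arrays, with 4.95 in miR-127-3p cells against 25.4 in control cells and 4.74 in miR-127-3p cells against 89.9 in control cells. KRT5, the type II partner of KRT14, was the single gene above the median on the miR-127-3p array only, at 88.3 in miR-127-3p cells against 4.52 in control cells. That value lies just above the miR-127-3p median of 83.3 and below the control median of 93.9, so no fold is given.

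The surface adhesion molecules separated by family member. EPCAM, a homotypic adhesion molecule of epithelia, gave 30.2 in miR-127-3p cells and 9181 in control cells, at least 110-fold lower. CDH1, E-cadherin, the main cadherin of epithelial adherens junctions, gave 7.05 in miR-127-3p cells against 775 in control cells, at least 9.28-fold lower. The second CDH1 probe set was dim on both arrays. CDH3, P-cadherin, was dim on both, at 66.4 in miR-127-3p cells and 15.0 in control cells. N-cadherin, CDH2, typical of neural and mesenchymal cells, was bright on both arrays, with 5050 in miR-127-3p cells against 3258 in control cells and a log2 ratio of 0.62.

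Desmosomal genes differed among themselves. The plakins, which tie the plaque to keratin filaments, were all 3 below the median with miR-127-3p and above it in the control. DSP, desmoplakin, gave 13.8 in miR-127-3p cells and 6991 in control cells, at least 83.6-fold lower. PPL, periplakin, gave 4.03 in miR-127-3p cells against 718 in control cells, at least 8.59-fold lower. EVPL, envoplakin, gave 4.27 in miR-127-3p cells against 110 in control cells, a lower limit of 1.32-fold, because its control signal was itself near the median. The armadillo-type plaque proteins JUP and PKP2 were lower too. JUP, plakoglobin, gave 24.9 in miR-127-3p cells and 472 in control cells, at least 5.65-fold lower. PKP2, plakophilin 2, gave 12.1 in miR-127-3p cells against 548 in control cells, at least 6.56-fold lower.

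The desmosomal cadherins were not among the lower genes. DSG2, desmoglein 2, the desmoglein found in most desmosomes, gave 3446 in miR-127-3p cells and 4158 in control cells, a log2 ratio of -0.28, and 677 in miR-127-3p cells against 592 in control cells at its other probe set, a ratio of 0.18. DSC2, desmocollin 2, gave 114 in miR-127-3p cells and 157 in control cells, a log2 ratio of -0.47. Both stayed within 2-fold, as did PKP3, plakophilin 3, with 291 in miR-127-3p cells against 362 in control cells and a log2 ratio of -0.33. DSC3 and PKP1, of stratified epithelia, were dim on both arrays, at 35.9 in miR-127-3p cells against 17.2 in control cells and at 37.0 in miR-127-3p cells against 13.3 in control cells. Of 10 desmosomal genes, 4 were thus at least 2-fold lower with dim signals at the array median, against 5.56% of all named genes. Another 3 were bright on both arrays and within 2-fold, 2 were dim on both, and EVPL had its limit of 1.32-fold.

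In tight junctions the claudins, the strand-forming proteins, were dim with miR-127-3p in all 4 cases. CLDN1 gave 42.4 in miR-127-3p cells and 2143 in control cells, at least 25.6-fold lower, and its second probe set was also brighter in the control, at 6.05 in miR-127-3p cells against 112 in control cells. CLDN4 gave 22.4 in miR-127-3p cells against 201 in control cells, at least 2.42-fold lower. CLDN3 and CLDN7 were dim on both arrays, with 46.0 in miR-127-3p cells against 59.0 in control cells and 5.36 in miR-127-3p cells against 72.7 in control cells. The control array therefore had CLDN1 and CLDN4 above its median but not CLDN3 or CLDN7.

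The membrane proteins with a MARVEL domain were brighter in control cells at the probe set that stood for each. OCLN, occludin, gave 432 in miR-127-3p cells and 1073 in control cells, 2.50-fold lower. All 4 OCLN probe sets were brighter in the control, but the other 2 above the median on both arrays had log2 ratios of -0.20 and -0.45, and the mean over its 3 entering probe sets, at -0.66, was within 2-fold. MARVELD2, tricellulin, which seals the corners where cells meet, gave 67.1 in miR-127-3p cells and 642 in control cells, at least 7.68-fold lower. MARVELD3 gave 12.8 in miR-127-3p cells against 153 in control cells, a lower limit of 1.84-fold, and a second probe set gave 6.14 in miR-127-3p cells against 129 in control cells.

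The cytoplasmic scaffolds split. TJP1, ZO-1, the scaffold that links strands to actin and is also used in non-epithelial cells, gave 4323 in miR-127-3p cells and 3417 in control cells, a log2 ratio of 0.33, with 0.82 at its other probe set. TJP1 was the single listed gene bright on both arrays whose chosen probe set was brighter with miR-127-3p. CGN, cingulin, a tight junction adaptor of epithelia, gave 62.0 in miR-127-3p cells and 370 in control cells, at least 4.43-fold lower, and its other probe set gave 34.6 in miR-127-3p cells against 225 in control cells, also dim with miR-127-3p. TJP3, ZO-3, gave 7.01 in miR-127-3p cells against 119 in control cells, a lower limit of 1.43-fold.

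Of 5 measured regulators of the epithelial state, 2 were at least 2-fold lower in miR-127-3p cells with dim signals at the median, against 5.56% of all named genes. ESRP1, an epithelial splicing regulator, gave 6.45 in miR-127-3p cells and 1136 in control cells, at least 13.6-fold lower, with 8.74 in miR-127-3p cells against 671 in control cells at its other bright probe set. ELF3, an epithelial ETS factor, gave 11.8 in miR-127-3p cells against 300.3 in control cells, at least 3.60-fold lower. All 3 ELF3 probe sets were dim with miR-127-3p and above the median in the control. GRHL2, a grainyhead factor that activates CDH1 and other junction genes, was dim on both arrays, at 39.8 in miR-127-3p cells and 16.1 in control cells. The zinc finger repressors of mesenchymal genes OVOL1 and OVOL2 were just above the control median, with 83.0 in miR-127-3p cells against 99.3 in control cells and 69.2 in miR-127-3p cells against 98.8 in control cells.

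In the membrane protease system 3 of 4 genes were at least 2-fold lower in miR-127-3p cells with dim signals at the median, against 5.56% of all named genes. SPINT2, a Kunitz-type inhibitor of such proteases, gave 37.4 in miR-127-3p cells and 2871 in control cells, at least 34.3-fold lower. SPINT1, its relative, gave 71.0 in miR-127-3p cells against 312 in control cells, at least 3.74-fold lower, while its other probe set gave 87.8 in miR-127-3p cells against 161 in control cells and a log2 ratio of -0.88. ST14, matriptase, the protease they inhibit, gave 22.0 in miR-127-3p cells and 241 in control cells, at least 2.89-fold lower. Protease and both inhibitors were thus lower together, and PRSS8, prostasin, was dim on both arrays at 16.6 in miR-127-3p cells against 47.0 in control cells.

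Polarity and trafficking genes were largely dim or within 2-fold. CRB3, an apical polarity protein, gave 93.0 in miR-127-3p cells and 231 in control cells, 2.49-fold lower, with the miR-127-3p signal close to the array median. LSR, which recruits tricellulin to cell corners, gave 320 in miR-127-3p cells and 549 in control cells, a log2 ratio of -0.79. RAB25, an epithelial recycling GTPase, was dim at 4.94 in miR-127-3p cells against 3.68 in control cells, and so was MAL2, a transcytosis protein, at 33.3 in miR-127-3p cells against 5.45 in control cells. AP1M2, an adaptor subunit for basolateral sorting, was dim at 24.3 in miR-127-3p cells against 72.5 in control cells. RAB25, MAL2 and GRHL2 are epithelial genes that neither array showed above its median.

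Probe sets were also counted one by one. Of the 49 probe sets of these genes that were above the median on at least 1 array, 5 were brighter in miR-127-3p cells and 44 in control cells, whereas 49.2% of all 24365 such probe sets were brighter in the control. Of 12 genes with more than 1 such probe set, 1 had all of them brighter with miR-127-3p and 9 had all of them brighter in the control. The remaining 2, KRT7 and DSG2, had probe sets on both sides. This count by gene was not made over all genes, and the 49.2% is a share of probe sets, so the count has no background beside it.

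Genes bright on both arrays give folds that do not rest on a dim signal. There were 11 such genes on the list, and 4 of them, KRT8, KRT18, OCLN and CRB3, were at least 2-fold lower in miR-127-3p cells, against 6.05% of the 11183 named genes bright on both arrays. The other 7 were within 2-fold, with log2 ratios between -0.87 for KRT80 and 0.33 for TJP1. Each of the 4 lower genes has a limit given above. KRT8 and KRT18 may cross-match, and OCLN was within 2-fold by the mean of its probe sets. CRB3, at 93.0 with miR-127-3p, was close to that array's median and below the control median of 93.9. By the mean signal filter, 24 of the 46 genes entered and 16 of these were at least 2-fold lower, beside 8.67% of all 11985 entering genes, and none was at least 2-fold higher, beside 5.06%. At least 8-fold lower were 11 of the 24, beside 1.41% of all. Their median log2 ratio was -2.64, beside 0 over all entering genes. A gene that enters only through its control signal had to differ, and the filter leaves out CDH1, PPL, CLDN4, ELF3 and ST14, so these values are a description only.

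**Figure D2:**
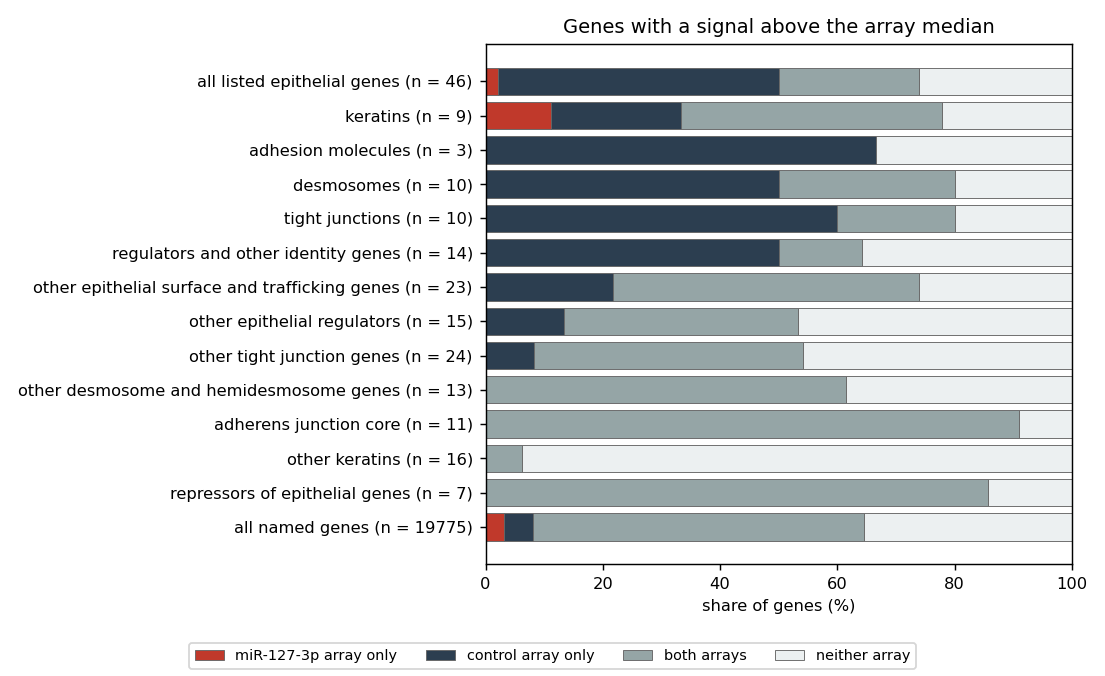
Share of genes, in percent, whose signal exceeded the array median in miR-127-3p cells only, in control cells only, in both or in neither, for the listed genes, their classes, other epithelial gene lists and all named genes. The control-only share was 47.8% for the 46 listed genes and 4.88% for all 19775 named genes.

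Other junction and epithelial genes, taken from lists outside the 46, were set beside them. The adherens junction core, which epithelial and non-epithelial cells share, had none of its 11 measured genes past 2-fold at the probe set that stood for each. With dim signals at the median, 5.56% of all named genes were lower and 2.91% higher. CTNNA1, alpha-catenin, gave 15127 in miR-127-3p cells and 14043 in control cells, a log2 ratio of 0.10, and CTNNB1, beta-catenin, gave 10193 in miR-127-3p cells against 14928 in control cells, a log2 ratio of -0.56, with its 3 entering probe sets between -1.11 and 0.04. VCL, vinculin, had the lowest log2 ratio of the 10 entering genes at -0.81, and CDH2 the highest at 0.62, ahead of AJUBA at 0.60 and ZYX at 0.49. CTNNA1 was named after its value was seen. CTNNA1 and CTNNB1 were thus bright on both arrays while CDH1 was bright in the control alone.

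Of 13 other desmosome and hemidesmosome genes, ITGB4, the hemidesmosomal integrin chain, was 2.42-fold lower, with 208 in miR-127-3p cells against 502 in control cells, and none was at least 2-fold higher. With dim signals at the median this was 7.69% of the list, near the 5.56% of all named genes, of which 2.91% were higher. ITGA6, another hemidesmosomal integrin chain, gave 3104 in miR-127-3p cells and 4695 in control cells, a log2 ratio of -0.61, and its other entering probe set was at -1.38. PERP, a desmosomal membrane protein named after its value was seen, gave 11788 in miR-127-3p cells and 14859 in control cells, a log2 ratio of -0.35. PKP4, an armadillo protein of several junctions, was at -0.72 and had 4 entering probe sets between -1.59 and -0.72. PLEC, plectin, was at 0.23 and DST, dystonin, at 0.14, though the 5 entering probe sets of DST ran from -1.19 to 0.45.

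Of 24 other tight junction genes, 1 was at least 2-fold lower and none higher at the probe set that stood for each, with dim signals at the median. That lower share, 4.17%, was near the 5.56% of all named genes, of which 2.91% were higher. CLDN11, a claudin of myelin and testis, gave 42.0 in miR-127-3p cells and 5544 in control cells, at least 66.3-fold lower, while a second probe set was within 2-fold. CGNL1, paracingulin, gave 82.9 in miR-127-3p cells against 160 in control cells at its chosen probe set, a lower limit of 1.92-fold. The other entering CGNL1 probe set was also brighter in the control and had a log2 ratio of -8.42, so the size of its difference is not settled. Among the entering genes with the highest ratios, CLDN15 was at 0.68, JAM3, a junctional adhesion molecule, at 0.65, and CLDN12 at 0.57. The median of the 13 entering genes of this list was 0.10.

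KRT10, a keratin of differentiating epidermis, was the single gene among 16 other keratins that was above the median on either array. It gave 8747 in miR-127-3p cells and 5144 in control cells, a log2 ratio of 0.75, and 3 KRT10 probe sets lay between 0.74 and 0.96. The other 15 keratins of that list were dim on both arrays.

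Of 15 other epithelial regulators, 4 were at least 2-fold lower and none higher with dim signals at the median, against 5.56% lower and 2.91% higher of all named genes. EHF, an ETS factor related to ELF3, gave 72.4 in miR-127-3p cells and 5094 in control cells, at least 60.9-fold lower. KLF5, a factor of proliferating epithelium, gave 187 in miR-127-3p cells against 1191 in control cells, 6.41-fold lower, with both probe sets near that value. GRHL1, a relative of GRHL2, gave 211 in miR-127-3p cells against 502 in control cells, 2.39-fold lower. The fourth was FOXA2, a pioneer factor of endoderm, chosen for mention after its value was seen, at 8.56 in miR-127-3p cells against 375 in control cells, at least 4.49-fold lower. TFAP2A, an AP-2 factor of ectoderm, was at -0.09, and GATA6 at 0.06 was the highest of the 7 that passed the signal filter. PRRG4, at -0.05, is counted in this list although it is a membrane protein and not a transcription or splicing factor.

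Other epithelial surface and trafficking genes held 10 of 23 that were at least 2-fold lower and none higher with dim signals at the median. The shares over all named genes were 5.56% lower and 2.91% higher. CD24, a glycosylated surface protein, gave 23.0 in miR-127-3p cells and 2629 in control cells, at least 31.4-fold lower. VIL1, villin, an actin bundler of brush borders, gave 45.4 in miR-127-3p cells against 1847 in control cells, at least 22.1-fold lower. S100P gave 86.3 in miR-127-3p cells against 2722 in control cells, 31.5-fold lower, and its miR-127-3p signal was close to the median. The highest log2 ratios among the 15 entering genes were those of MYO5B, a motor of apical recycling, at 0.61, EPS8L1 at 0.04 and CEACAM1 at -0.21.

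**Figure D3:**
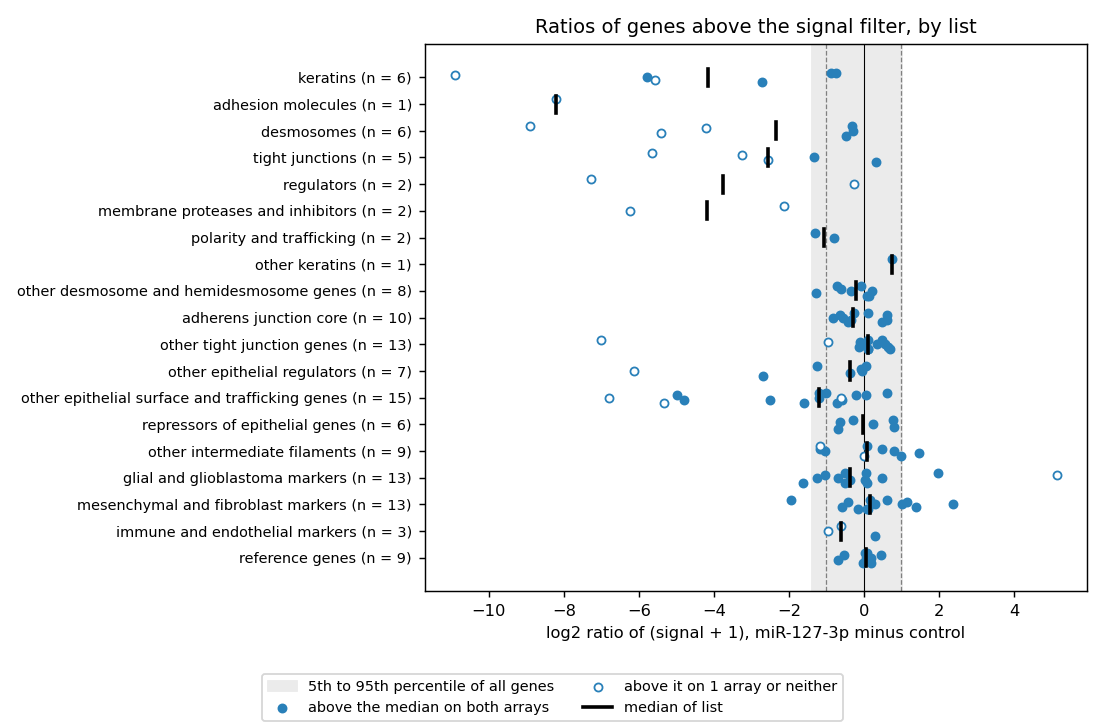
Log2 ratio of (signal + 1), miR-127-3p minus control, of each gene above the signal filter, by list, with the list median as a bar and the 5th to 95th percentile of all genes (-1.37 to 1.01) shaded. Open points are genes dim on at least 1 array; the classes of listed epithelial genes reach far to the left, and the adherens core and the repressors stay within 2-fold.

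Factors that repress epithelial genes were measured for comparison, and none of the 7 passed 2-fold. With dim signals at the median, 5.56% of all named genes were lower and 2.91% higher. ZEB1 gave 2240 in miR-127-3p cells and 2723 in control cells, a log2 ratio of -0.29, and ZEB2 gave 763 in miR-127-3p cells against 645 in control cells, a log2 ratio of 0.23. SNAI1 was at -0.69 with 170 in miR-127-3p cells against 273 in control cells, and SNAI2 at -0.65 with 1458 in miR-127-3p cells against 2270 in control cells. TWIST1 was at 0.80 with 2495 in miR-127-3p cells against 1424 in control cells, and TWIST2 at 0.77 with 1182 in miR-127-3p cells against 689 in control cells. All 6 of these repressors were above the median on both arrays, with the SNAI genes brighter in the control and the TWIST genes brighter with miR-127-3p, and SNAI3 was dim on both.

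Intermediate filaments and markers of other cell types gave the setting of the keratin values. Among 14 other intermediate filament genes, 2 were at least 2-fold lower and 1 higher with dim signals at the median. For this list and the marker lists that follow, the shares over all named genes were 5.56% lower and 2.91% higher. The lower ones were NES and SYNM, with SYNM at 12335 in miR-127-3p cells against 27411 in control cells, 2.24-fold lower. SYNC was 2.78-fold higher. VIM, vimentin, gave 48866 in miR-127-3p cells and 45584 in control cells, a log2 ratio of 0.09. GFAP, the astrocyte filament, was dim on both arrays at 14.9 in miR-127-3p cells against 34.2 in control cells, so the defining marker of astrocytes was not above the median in either culture. NES, nestin, gave 893 in miR-127-3p cells against 1804 in control cells, 2.04-fold lower. That is barely past the limit, and the other NES probe set was within 2-fold at a log2 ratio of -0.46. SOX2, a neural stem cell factor, gave 1656 in miR-127-3p cells against 3893 in control cells, 2.37-fold lower. OLIG2, a factor of oligodendrocyte precursors, gave 201 in miR-127-3p cells against 192 in control cells. Of 18 glial and glioblastoma markers, 2 were at least 2-fold higher, SLC1A3 (at least 28.1-fold) and EGFR (3.96-fold, with log2 ratios from 0.01 to 1.99 over its 5 entering probe sets), and 3 were lower, NES, SOX2 and SOX9 (3.11-fold). The summed signal of this list was 92915 in miR-127-3p cells and 89322 in control cells, and without VIM, which gave much of it, 44050 in miR-127-3p cells and 43738 in control cells. Much of the sum without VIM came from CD44, at 22904 in miR-127-3p cells and 16408 in control cells, so it says little of the other markers. Of 17 mesenchymal and fibroblast markers, 4 were higher and 1 was lower. CDH11 gave 3793 in miR-127-3p cells against 723 in control cells, with 3 probe sets at log2 ratios from 0.84 to 2.38. ACTA2 was 2.60-fold higher and DCN 2.22-fold higher, with 4 DCN probe sets from 0.10 to 1.16. COL5A1, named after its value was seen, was 2.01-fold higher, with 3 probe sets from 0.48 to 1.06. COL1A1 was 3.86-fold lower, with 3 probe sets from -1.95 to -0.04. This list, which also holds VIM, summed to 125357 in miR-127-3p cells and 123085 in control cells, and without VIM to 76492 in miR-127-3p cells and 77501 in control cells. Much of the latter came from SPARC, at 19963 in miR-127-3p cells and 26489 in control cells, and FN1, at 30214 in miR-127-3p cells and 33172 in control cells. FN1 was named after its value was seen. These sums therefore say little of the other markers. Of 10 immune and endothelial markers none passed 2-fold, with sums of 656 in miR-127-3p cells and 662 in control cells, and PTPRC, CD3E and CDH5, named after their values were seen, were dim on both arrays. The 12 defining epithelial markers were KRT8, KRT18, KRT19, EPCAM, CDH1, DSP, CLDN3, CLDN4, CLDN7, ESRP1, GRHL2 and ELF3. Of these 9 were at least 2-fold lower, and they summed to 7402 in miR-127-3p cells and 93196 in control cells, most of it from the 3 keratins. Without the keratins the other 9 summed to 183 in miR-127-3p cells and 18733 in control cells. Most of that control sum came from EPCAM, at 9181, and DSP, at 6991. CLDN3, CLDN7 and GRHL2 were dim on both arrays, and GRHL2 had its larger signal with miR-127-3p. All 12 markers are among the 46 listed genes, so they give no separate view of cell type. The part of any other cell type in the epithelial differences was not tested.

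Quality controls were similar on both arrays. Signal at the 3′ control probe set over that at the 5′ one was 0.97 in miR-127-3p cells and 0.98 in control cells at GAPDH, while ACTB had 2.95 in miR-127-3p cells and 3.36 in control cells. None of 9 reference genes passed 2-fold.

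Promoter windows of the listed genes, from 250 bases before to 50 after an annotated start, were searched for the E-box CAGGTG or its reverse complement CACCTG, the hexamer that ZEB and SNAI factors bind. RefSeq windows (GRCh38.p14) were at hand for 23 of the 49 genes. An E-box was found in at least 1 window of 15 of these 23 genes (65.2%), against 24.1% of 27305 genes, and 8 (34.8%) had more than 1 in a window, against 4.22%. Counting only genes with a single window, 8 of 16 listed genes (50%) and 20.8% of 22114 genes had one. Of the 11 searched genes that were at least 2-fold lower in miR-127-3p cells, 6 had an E-box, and of the 12 others 9 did. The others are not a set of unchanged genes. Among those with an E-box, DSG2, DSC2 and TJP1 were bright on both arrays and within 2-fold. KRT5, CLDN3, CLDN7, TJP3, RAB25 and AP1M2 were dim on at least 1 array, so the 2 sets do not separate lower from unchanged genes. The hexamer therefore occurred both in lower genes and in others, and a match is a description of these letters and not of binding. Base composition can move such shares and was not tested.

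Shown here are windows of 4 lower genes, for a plaque protein pair, a regulator and the polarity gene with the most E-boxes, and of DSG2, which stayed within 2-fold. E-boxes are in capitals, and each is written 5′ to 3′ on the gene's strand. DSP lies at chr6:7541421-7541720, plus strand, JUP at chr17:41785927-41786226, minus strand, ELF3 at chr1:202010337-202010636, plus strand, CRB3 at chr19:6464021-6464320, plus strand, and DSG2 at chr18:31497927-31498226, plus strand.
DSP: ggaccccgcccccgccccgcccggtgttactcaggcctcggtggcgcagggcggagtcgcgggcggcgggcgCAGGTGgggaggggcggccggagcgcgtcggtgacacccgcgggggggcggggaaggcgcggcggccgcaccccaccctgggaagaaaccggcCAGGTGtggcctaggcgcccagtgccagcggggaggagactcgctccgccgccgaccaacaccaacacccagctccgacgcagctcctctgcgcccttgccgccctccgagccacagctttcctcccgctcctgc
JUP: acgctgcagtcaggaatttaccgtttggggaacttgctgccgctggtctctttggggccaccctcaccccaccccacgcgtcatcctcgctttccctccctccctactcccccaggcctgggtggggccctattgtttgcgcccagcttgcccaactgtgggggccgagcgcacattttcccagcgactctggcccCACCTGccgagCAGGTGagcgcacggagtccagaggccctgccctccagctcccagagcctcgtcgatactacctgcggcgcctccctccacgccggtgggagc
ELF3: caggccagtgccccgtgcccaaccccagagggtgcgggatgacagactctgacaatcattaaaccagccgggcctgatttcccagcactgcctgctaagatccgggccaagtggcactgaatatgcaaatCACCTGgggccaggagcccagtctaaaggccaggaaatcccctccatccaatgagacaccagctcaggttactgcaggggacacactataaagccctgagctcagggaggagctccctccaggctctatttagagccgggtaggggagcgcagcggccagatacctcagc
CRB3: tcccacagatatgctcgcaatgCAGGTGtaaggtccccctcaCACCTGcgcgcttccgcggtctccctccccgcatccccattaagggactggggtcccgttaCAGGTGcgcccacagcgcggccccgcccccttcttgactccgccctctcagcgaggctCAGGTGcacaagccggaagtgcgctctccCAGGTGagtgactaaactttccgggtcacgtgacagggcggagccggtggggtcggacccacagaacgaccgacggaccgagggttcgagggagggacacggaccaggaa
DSG2: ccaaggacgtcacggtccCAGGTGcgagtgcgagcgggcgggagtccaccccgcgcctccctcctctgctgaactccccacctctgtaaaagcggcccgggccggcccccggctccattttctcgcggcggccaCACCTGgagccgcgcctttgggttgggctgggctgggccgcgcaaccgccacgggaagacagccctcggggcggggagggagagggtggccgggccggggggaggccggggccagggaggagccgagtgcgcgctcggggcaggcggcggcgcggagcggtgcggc
The windows held 2 E-boxes for DSP, 2 for JUP, 1 for ELF3, 5 for CRB3 and 2 for DSG2. JUP had a second annotated start whose window held none. DSP, at least 83.6-fold lower in miR-127-3p cells, and DSG2, at a log2 ratio of -0.28, had the same number, but they are 1 pair chosen for display. Lower genes whose windows held none, among them KRT8, CLDN1, MARVELD2 and CGN, are not shown. Binding was not measured, and any part of E-boxes in the differences was not tested.

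**Figure D4:**
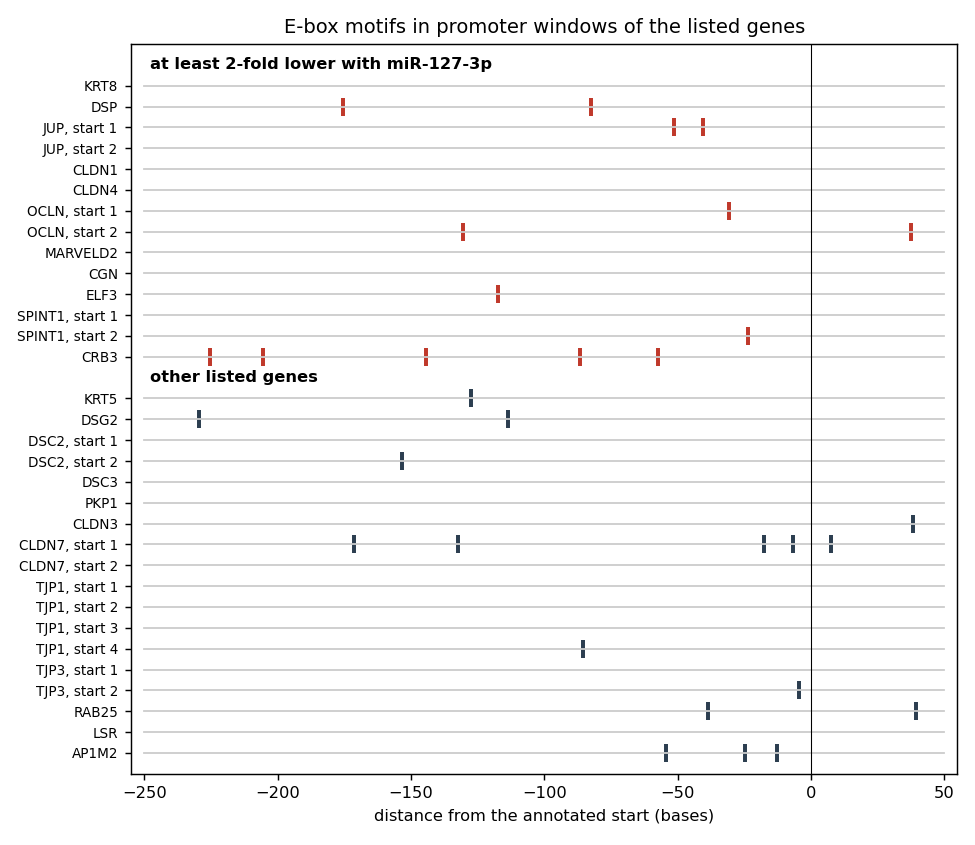
Position of each E-box in the promoter windows, in bases from the annotated start, for the 11 genes at least 2-fold lower in miR-127-3p cells (upper rows) and the 12 other searched genes (lower rows); genes with several starts have a row each. E-boxes occur in both sets, and the most, 5 in a window, are held by CRB3 of the lower genes and CLDN7 of the others.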

How the data were processed

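Total RNA of 2 cultures was labelled with biotin by a 3′ kit and hybridised to Affymetrix arrays, per the labels' protocols. The authors deposited a value table of linear signal intensity per probe set; how probes were summarised or background-corrected is not given in the sources used here. Judged from the values, both arrays share a scale: the mean intensity after trimming 2% at each end was 500.1 on each. The number of arrays limits the precision.

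The platform annotation gave 41091 of 54613 non-control probe sets 1 symbol, 1801 several and 11721 none here; 62 control probe sets were kept apart. Symbols were updated through Entrez identifiers with a RefSeq table of GRCh38.p14, which matched 99.9%. Signals became log2(signal + 1), with a pseudocount of 1. A gene entered if its mean log2 value exceeded that of the median non-control probe set (signal 83.0). The brightest probe set by that mean stood for its gene. The median over 11985 entering genes was subtracted, and 2-fold was a rule of size. Fold changes of low genes are understated by the pseudocount.

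The members and lists were chosen with earlier results of these data known. Every listed gene was described; of other lists the counts, and at most the 3 highest and 3 lowest entering genes, with GFAP, OLIG2, SOX2, VIM, NES and 6 repressors whatever their value. CTNNA1, PERP, FOXA2, COL5A1, FN1, PTPRC, CD3E and CDH5 fall outside this rule and were named after their values were seen. Alternatives were other fold thresholds, filters, scalings, pseudocounts, floors and probe set choices. The log2 ratios of entering genes were tested on simulated data. The lower limits for dim signals and the counts of genes above the median on the control array only were not part of that test. Python 3.11.15, numpy 2.4.6, pandas 2.3.3, statsmodels 0.14.6, scipy 1.17.1 and matplotlib 3.10.9 were used.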

Additional observations from a re-analysis of the deposited data

How the results depend on the processing

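The count of 16 of 24 listed genes at least 2-fold lower in miR-127-3p cells stood beside 8.67% of all entering genes. It was 19 at a 1.5-fold threshold (beside 18.1% of all) and 14 at a 3-fold threshold (beside 3.94%). Under the scalings, pseudocounts, floor and mean of probe sets it was 15 to 20, of 24 to 28 that entered (beside 7.54% to 8.51%). With no filter it was 29 of 46 (beside 17.2% of all genes), with 6 higher (beside 12.8% of all), where the count of higher genes was 0 under the other alternatives run. With no filter and dim signals at the array median, a setting added after seeing the data, 21 were lower (beside 4.14%) and none higher (beside 4.57%). With the filter at the 75th percentile only 7 listed genes entered and 4 were lower (beside 4.95%), and without probe sets that carry a cross-match suffix 14 entered and 8 were lower (beside 8.86%), so both counts rest on fewer genes. The median log2 ratio of -2.64 became -1.37 with the stricter filter, -1.31 without suffix probe sets and -0.65 with no filter and dim signals at the median. By class, no filter gave 5 desmosomal, 8 tight junction and 8 regulator and other identity genes lower, against 3, 4 and 4. The stricter filter gave 2 keratins, 0 desmosomal genes and 1 tight junction gene and left no regulator or identity gene, and without suffix probe sets there was 1 keratin, against 4, and 1 desmosomal gene. Of the 24 entering genes, none that passed 2-fold changed sign under any of the 12 alternatives that gave it a value. Most of those genes, such as KRT19, EPCAM and DSP, were dim with miR-127-3p and entered through their control signal. The filter thus largely fixed their sign in advance. Every alternative also reuses the same 2 arrays, so a kept sign and the count of 16 of 24 are no independent support. KRT7, within 2-fold, was at 0.77 without suffix probe sets and 0.01 with the mean of its probe sets. OCLN fell short of 2-fold, at -0.66, with the mean of its probe sets. No paired analysis was possible because each group had 1 array. Signal over background limits the lower bounds, since values under the array median have no reliable order.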
